A study of Mus musculus with 12 samples.

Results

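Replication-dependent histone genes encode the core histones that package newly copied DNA. They were followed here in 12 mouse colon tumours on Affymetrix arrays. Probe sets were taken where the array annotation gave a single symbol starting with Hist1 to Hist4, H1-, H2ac, H2bc, H3c or H4c, and the MHC genes, whose symbols start with H2-, were left out. This gave 9 probe sets of 7 genes, out of 34945 single-symbol probe sets of 18194 genes. H2A was read by 2 probe sets of 1 gene, H2B by 4 probe sets of 3 genes and H3 by 3 probe sets of 3 genes. No probe set of H4, and none of linker histone H1, met the rule.

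The tumours had been grown in the cecum of C57BL/6 mice from MC38, a mouse colon carcinoma line, and 4 groups of 3 tumours were profiled: APC-KO with doxycycline (Dox), APC-KO without Dox, APC-WT with Dox and APC-WT without Dox. APC scaffolds the complex that marks beta-catenin for degradation. The implanted MC38 cells of all groups carried an inducible hairpin against Tdo2, which opens the ring of tryptophan. Dox in drinking water was given to induce it, so the hairpin and Dox as a drug cannot be told apart in these groups. The labels do not give the age of the mice, whether each tumour had its own host, or whether the APC-KO cells were 1 clone. The p-values therefore measure only the spread between these tumours, which may be technical.

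As background, every round of DNA replication needs a matching supply of histones, and most core histone genes lie in clusters and are transcribed mainly in S phase. Their mRNAs usually have no poly(A) tail. They end in a stem-loop that is bound by SLBP, the stem-loop binding protein, and formed by a cut made by the U7 small nuclear ribonucleoprotein. Members of 1 histone class encode nearly the same protein, so probes made for 1 gene can read its relatives. H2bc21 is an exception among the members: in mouse it is known as H2be, a variant described in olfactory neurons as made outside S phase.

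The 3 members on chromosome 3 (H2ac19, H2bc18 and H2bc21) lay within 49121 bases of each other in the RefSeq annotation of GRCm38.p6. The 4 on chromosome 13 (H2bc22, H3c11, H3c4 and H3c7) spanned 1793352 bases. H2ac19 lay at chr3:96239779-96240374 on the minus strand, H2bc21 at chr3:96221072-96223738 and H2bc18 at chr3:96269700-96270192. H2bc22 lay at chr13:21787483-21801561, H3c11 at chr13:21782915-21783397, H3c4 at chr13:23575763-23576266 and H3c7 at chr13:23544052-23544954.

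Promoter windows from RefSeq (GRCm38.p6), 300 bases long and running from 250 bases before to 50 bases after the annotated start, were used for 5 of the 7 member genes, all but H2bc21 and H3c7. The window of H2ac19, the member that moved most, is shown beside that of H2ac18, its near copy on the same chromosome, because the array signal of this pair may not be separable. The window of H2bc22 is shown because its values, though under the filter for testing, were also highest in APC-KO tumours without Dox, and that of H2bc18 for the only octamer among the member windows. Each reads 5′ to 3′ on the gene's strand, and capitals mark motifs found on either strand. The TATA box was searched as TATAAA and, for the other strand, as TTTATA. The second motif was CCAAT, with ATTGG for the other strand. The third was the octamer ATTTGCAT, with ATGCAAAT for the other strand. No matches overlapped in the windows printed here. The windows are H2ac19 at chr3:96240325-96240624 (minus strand), H2ac18 at chr3:96245247-96245546 (plus strand), H2bc22 at chr13:21787238-21787537 (plus strand) and H2bc18 at chr3:96269450-96269749 (plus strand).
H2ac19: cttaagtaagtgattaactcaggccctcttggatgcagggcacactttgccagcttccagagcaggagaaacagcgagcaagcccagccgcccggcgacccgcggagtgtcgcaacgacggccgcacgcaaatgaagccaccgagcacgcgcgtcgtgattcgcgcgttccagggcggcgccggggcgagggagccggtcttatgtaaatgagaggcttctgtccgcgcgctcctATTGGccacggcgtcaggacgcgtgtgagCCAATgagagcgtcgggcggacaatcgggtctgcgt
H2ac18: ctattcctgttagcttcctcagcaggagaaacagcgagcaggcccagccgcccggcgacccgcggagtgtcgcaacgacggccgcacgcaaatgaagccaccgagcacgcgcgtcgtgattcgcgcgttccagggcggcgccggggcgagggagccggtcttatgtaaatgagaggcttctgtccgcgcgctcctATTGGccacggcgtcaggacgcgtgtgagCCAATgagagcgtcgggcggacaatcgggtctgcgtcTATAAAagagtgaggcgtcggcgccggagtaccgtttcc
H2bc22: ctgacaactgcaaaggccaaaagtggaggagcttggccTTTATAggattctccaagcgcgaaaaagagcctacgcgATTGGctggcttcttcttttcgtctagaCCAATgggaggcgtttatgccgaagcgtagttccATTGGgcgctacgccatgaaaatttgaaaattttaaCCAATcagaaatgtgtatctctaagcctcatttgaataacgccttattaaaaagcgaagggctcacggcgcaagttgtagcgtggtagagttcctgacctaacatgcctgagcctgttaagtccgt
H2bc18: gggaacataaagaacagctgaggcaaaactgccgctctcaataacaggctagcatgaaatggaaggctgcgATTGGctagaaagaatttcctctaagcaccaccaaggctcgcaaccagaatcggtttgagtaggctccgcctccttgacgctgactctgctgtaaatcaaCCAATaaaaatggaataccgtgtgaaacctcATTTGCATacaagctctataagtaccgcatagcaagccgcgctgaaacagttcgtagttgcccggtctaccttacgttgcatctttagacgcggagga

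With a shift of 40 bases, 249 of 260 aligned bases of the H2ac19 and H2ac18 windows were the same (95.8%). CCAAT was present in the windows of 5 of the 5 members, of 83.3% of 54 core histone genes and of 41.1% of all 27025 genes with a window. TATAAA was present in 3 of the 5 members, in 55.6% of the core histone genes and in 15.7% of all genes. Counted from the annotated start, the H3c11 match begins at -147, and the H3c4 matches at -168, -161 and, on the other strand, -32. The H2bc22 match lies on the other strand at -212 to -207. Its window shares 261 bases with that of H2ac22, where the same bases read TATAAA at -33 to -28. The octamer was present in 1 of the 5 members, H2bc18, in 24.1% of the core histone genes and in 1.97% of all genes. The H2ac19 window ends before the bases that hold TATAAA in the shifted H2ac18 window. A match is a description of the letters, and a missing match says only that the letters are not in that window.

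The deposited values are log2 expression values, and differences below are on that log2 scale, with the standard error of a limma fit over all 12 arrays and over 3 tumours per group. Probe sets were tested where their mean over all arrays reached 5.55, the middle of the means of the non-control probe sets, which is a filter and not a measured background. This left 22519 of 45037 probe sets. Array medians lay between 5.53 and 5.58, correlations between arrays of a group between 0.995 and 0.998, and no pair of arrays held identical values. As a check of the labels, the 3 tested probe sets of Apc differed between the genotypes (APC-KO minus APC-WT) by -0.94, -0.49 and -0.24 with Dox, all past the threshold, and by -0.84, -0.41 and -0.10 without Dox, of which the last did not pass (adjusted p = 0.293), while the 3 probe sets of Tdo2 lay under the filter and could not show whether the hairpin worked. Of the 5 MC38 carcinoma markers, Krt8, Epcam and Cdh1 averaged 9.54, 7.25 and 5.62 on the log2 scale and were tested, and Krt18 and Krt19 lay under the filter on all arrays. The host genes Lyz2 and Col3a1 averaged 13.2 and 13.4. Tumour and host RNA were thus measured together, and in such bulk samples fewer cells of a type and less RNA per cell cannot be told apart.

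Of the 9 members, 4 were tested, 2 probe sets each of H2ac19 and H2bc21. The other 5 members, each of a different gene, lay under the filter on every array. In APC-KO compared with APC-WT tumours without Dox, all 4 tested members were higher, and 24.1% of all tested probe sets passed in either direction (12.6% higher). With Dox in APC-KO tumours, 2 of the 4 were lower, both of H2ac19, where 0.582% of all tested probe sets passed (0.511% lower). Between APC-KO and APC-WT tumours with Dox, 1 of the 4 was higher, of H2bc21, and 19.6% of all tested probe sets passed (10.8% higher). Dox in APC-WT tumours gave 0 of the 4 past the threshold in the limma fit, and none had an unadjusted p under 0.05; 0.0355% of all tested probe sets passed, and 14.3% had an unadjusted p under 0.05. In the interaction of Dox and genotype none of the 4 passed, as for all tested probe sets (0%), and 2 of the 4 had an unadjusted p under 0.05, against 11.7% of all tested probe sets.

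**Figure D1:**
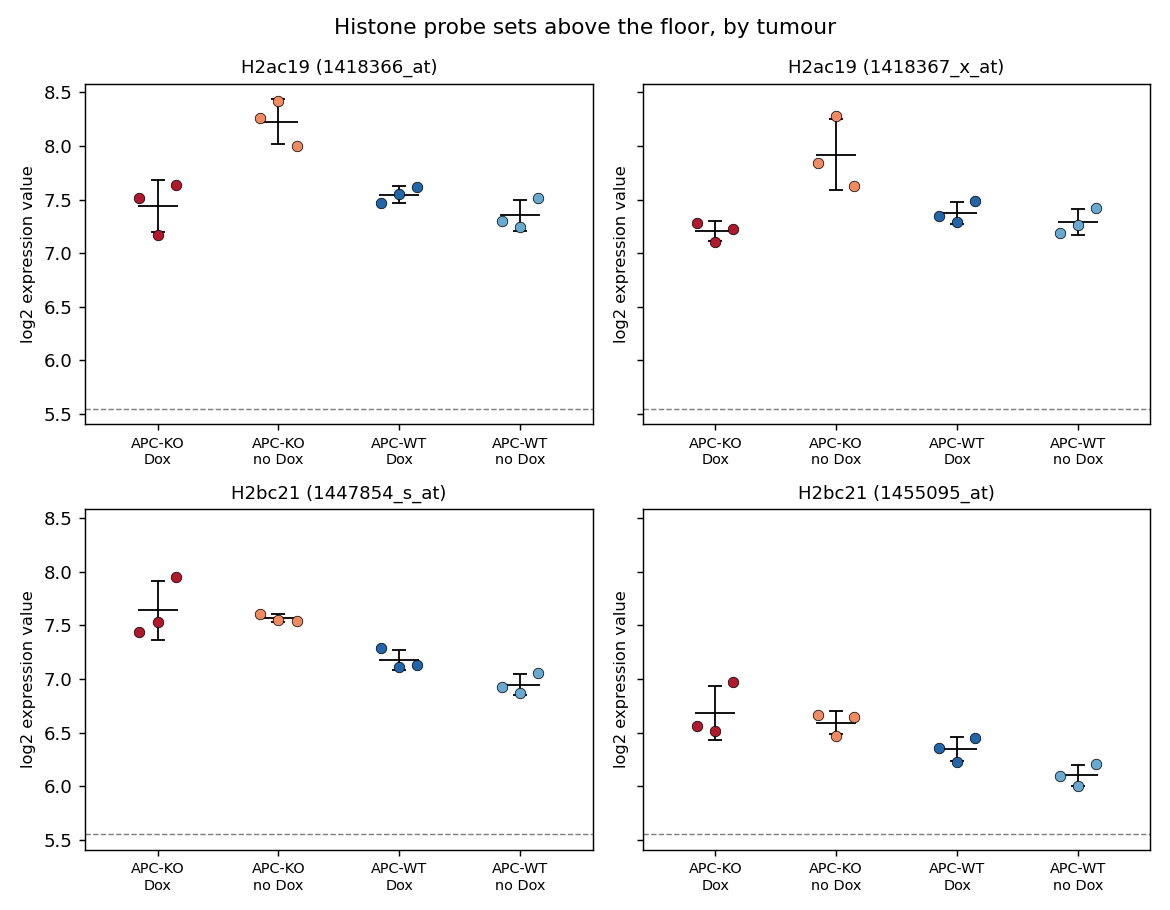
Log2 expression values (vertical axis) of the 4 tested histone probe sets in each tumour, by group, with group means and SD as bars (n = 3) and the filter of 5.55 as a dashed line. For both H2ac19 probe sets the 3 APC-KO tumours without Dox lie above the other 9 tumours, and for both H2bc21 probe sets all 6 APC-KO tumours lie above all 6 APC-WT tumours. The shares of all tested probe sets with these patterns were not counted.

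H2ac19 encodes a core histone H2A, which pairs with H2B in the nucleosome. Its probe set 1418366_at had log2 values of 7.52, 7.17 and 7.64 in APC-KO tumours with Dox, 8.26, 8.42 and 8.00 in APC-KO tumours without Dox, 7.46, 7.56 and 7.62 in APC-WT tumours with Dox, and 7.30, 7.24 and 7.52 in APC-WT tumours without Dox. The 3 APC-KO tumours without Dox were the highest of the 12, and no other tumour reached their lowest value. The share of all tested probe sets with this pattern was not counted. The group means were 7.44 ± 0.24 in APC-KO tumours with Dox, 8.23 ± 0.21 in APC-KO tumours without Dox, 7.55 ± 0.08 in APC-WT tumours with Dox and 7.35 ± 0.15 in APC-WT tumours without Dox (SD, n = 3 each).

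The other H2ac19 probe set, 1418367_x_at, had log2 values of 7.28, 7.10 and 7.23 in APC-KO tumours with Dox, 7.85, 8.28 and 7.63 in APC-KO tumours without Dox, 7.35, 7.29 and 7.49 in APC-WT tumours with Dox, and 7.19, 7.26 and 7.42 in APC-WT tumours without Dox. Its 3 APC-KO tumours without Dox were again above all others, a pattern whose share was not counted. Their spread was the widest of the 4 groups (7.92 ± 0.33, SD, n = 3). The ending _x_at marks probe sets whose probes can also match other sequences. The array annotation names H2ac19 alone for both, but H2ac18 is a near copy, so the gene that gave the signal is uncertain.

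H2ac19 fell with Dox in APC-KO tumours, by -0.78 ± 0.12 (1.72-fold, adjusted p = 0.0110) on 1418366_at and by -0.72 ± 0.13 (1.64-fold, adjusted p = 0.0232) on 1418367_x_at. By p these were number 37 and number 68 of the 22519 tested probe sets, and for both the APC-KO tumours with Dox did not overlap those without. Groups that did not overlap in that direction were seen for 9.01% of all tested probe sets. In APC-WT tumours the difference with Dox was 0.20 ± 0.12 (95% interval -0.07 to 0.46, adjusted p = 0.496) and 0.09 ± 0.13 (-0.19 to 0.36, adjusted p = 0.806), and the groups overlapped. The call in APC-KO tumours ended for both probe sets without APC-KO no Dox replicate 1 (adjusted p = 0.0570 and 0.0701) and when only the compared groups were fitted (0.0529 and 0.0888), and for 1418367_x_at also without APC-KO Dox replicate 2 (0.109) or replicate 3 (0.0880).

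Without Dox, H2ac19 was higher in APC-KO than APC-WT tumours, by 0.87 ± 0.12 (1.83-fold, adjusted p = 0.000223) and 0.63 ± 0.13 (1.55-fold, adjusted p = 0.00324), with no overlap on either probe set. Groups that did not overlap in this direction were seen for 19.1% of all tested probe sets. With Dox the difference between APC-KO and APC-WT tumours was -0.10 ± 0.12 (95% interval -0.37 to 0.16, adjusted p = 0.605) and -0.17 ± 0.13 (-0.45 to 0.10, adjusted p = 0.386). On the second probe set the APC-KO tumours with Dox lay below the APC-WT tumours with Dox without overlap, as 19.1% of all tested probe sets did. The 2 differences that passed share the 3 APC-KO tumours without Dox, so they are not independent of each other.

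The response of H2ac19 to Dox differed between APC-KO and APC-WT tumours by -0.98 ± 0.18 (adjusted p = 0.127) on 1418366_at and by -0.80 ± 0.18 (adjusted p = 0.168) on 1418367_x_at. By p these were number 10 and number 76 of the 22519 tested probe sets, and neither passed. The first passed with array quality weights (-1.02, adjusted p = 0.0357) and with replicate 3 of the APC-WT no Dox tumours left out (-1.06, adjusted p = 0.0248).

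**Figure D2:**
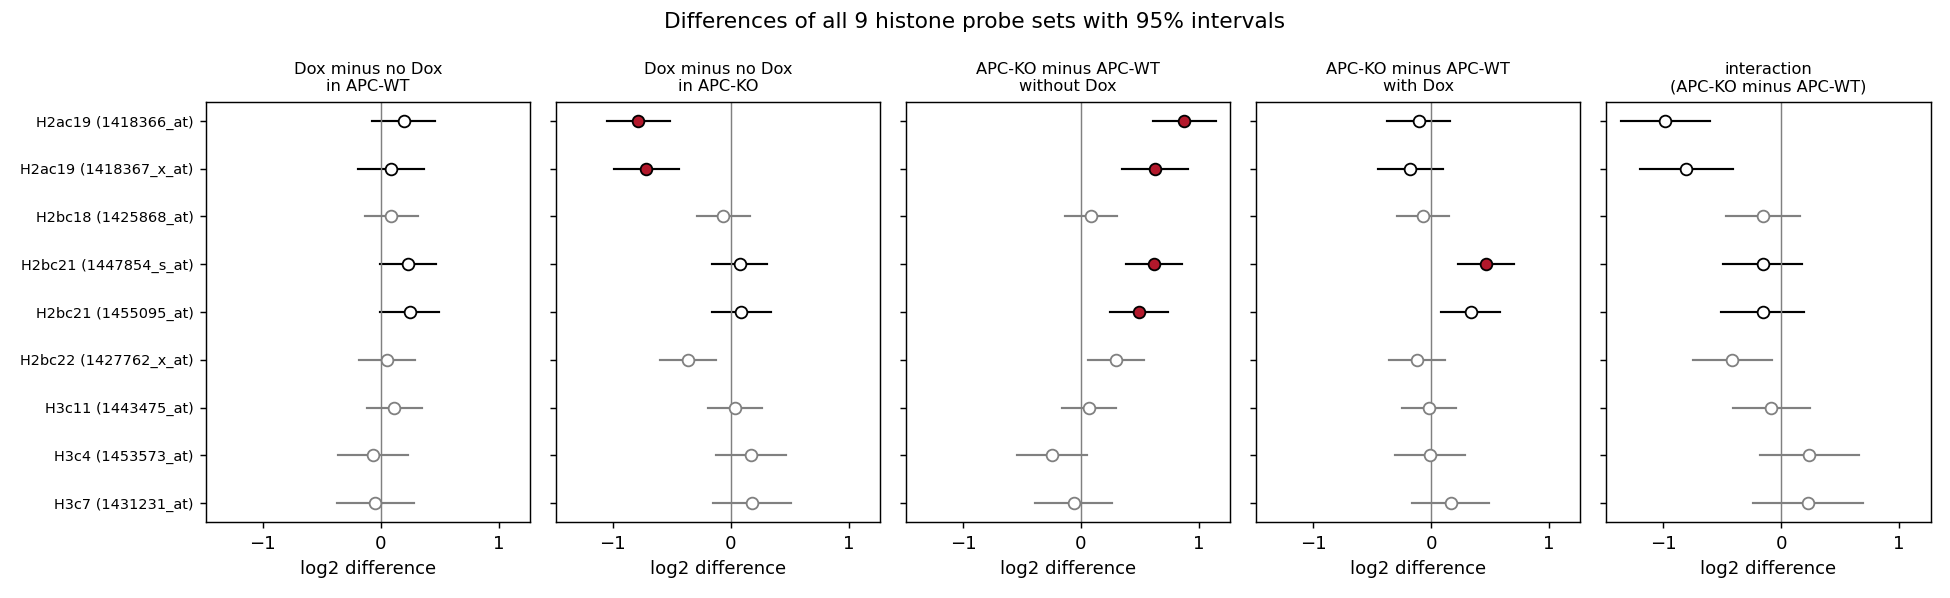
Log2 differences (horizontal axis) of all 9 histone probe sets in the 5 comparisons, with 95% intervals; filled points passed an adjusted p of 0.05, and grey marks are the 5 probe sets under the filter, which were not tested. H2ac19 lies at -0.78 and -0.72 with Dox in APC-KO tumours, and the H2bc21 points there lie near 0.

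H2bc21 encodes a histone H2B. Its probe set 1447854_s_at had log2 values of 7.44, 7.53 and 7.95 in APC-KO tumours with Dox, 7.61, 7.55 and 7.54 in APC-KO tumours without Dox, 7.28, 7.12 and 7.13 in APC-WT tumours with Dox, and 6.93, 6.87 and 7.05 in APC-WT tumours without Dox. The other, 1455095_at, had 6.56, 6.52 and 6.97 in APC-KO tumours with Dox, 6.66, 6.47 and 6.65 in APC-KO tumours without Dox, 6.36, 6.23 and 6.45 in APC-WT tumours with Dox, and 6.09, 6.00 and 6.20 in APC-WT tumours without Dox. On both, every APC-KO tumour was above every APC-WT tumour, and APC-KO Dox replicate 3 was the highest of the 12. The share of all tested probe sets with this full separation was not counted. For 3 against 3 tumours, groups did not overlap in this direction for 19.1% of them without Dox and 21.7% with Dox. The ending _s_at marks probe sets whose probes match more than 1 transcript.

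H2bc21 was higher in APC-KO than APC-WT tumours without Dox, by 0.62 ± 0.11 (1.54-fold, adjusted p = 0.00126) on 1447854_s_at and 0.49 ± 0.12 (1.41-fold, adjusted p = 0.00734) on 1455095_at. With Dox it was higher by 0.46 ± 0.11 (1.38-fold, adjusted p = 0.00910) on the first, while the second missed the threshold at 0.34 ± 0.12 (1.26-fold, adjusted p = 0.0558) although its groups did not overlap. Groups that did not overlap in that direction were seen for 21.7% of all tested probe sets. The second probe set passed with Dox without APC-KO Dox replicate 1 (adjusted p = 0.0493) or replicate 2 (0.0421) and with array quality weights (0.0165). Without APC-KO Dox replicate 3 the difference with Dox was 0.19 (adjusted p = 0.248) on the second and 0.31 (adjusted p = 0.0307) on the first, which still passed.

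With Dox, H2bc21 differed by 0.07 ± 0.11 (95% interval -0.16 to 0.31, adjusted p = 0.823) and 0.09 ± 0.12 (-0.16 to 0.34, adjusted p = 0.792) in APC-KO tumours. Without APC-KO Dox replicate 3 these differences were -0.08 and -0.06. In APC-WT tumours they were 0.23 ± 0.11 (-0.01 to 0.46, adjusted p = 0.369) and 0.24 ± 0.12 (-0.0048 to 0.49, adjusted p = 0.360), with groups that did not overlap, as for 11% of all tested probe sets in that direction. The interaction was -0.15 ± 0.16 on both (adjusted p = 0.741 and 0.753). In APC-KO tumours, then, the intervals of the H2bc21 differences with Dox lay wholly above those of H2ac19, which ran from -1.05 to -0.52 and from -0.99 to -0.44; this difference between the genes was not tested.

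H2bc22, another H2B gene, was read by 1427762_x_at under the filter on every array. It had log2 values of 5.16, 4.84 and 5.14 in APC-KO tumours with Dox, 5.48, 5.53 and 5.22 in APC-KO tumours without Dox, 5.05, 5.22 and 5.22 in APC-WT tumours with Dox, and 5.08, 5.09 and 5.17 in APC-WT tumours without Dox. The APC-KO tumours without Dox lay above those with Dox and above the APC-WT tumours without Dox. The difference with Dox in APC-KO tumours was -0.36 (adjusted p without a filter = 0.257), and that between APC-KO and APC-WT tumours without Dox was 0.30 (0.103), so neither passed. Over all probe sets with no filter, groups did not overlap in these directions for 7.64% and 13.1%.

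The other 4 members lay lower still. H2bc18, an H2B gene, ranged from 4.08 to 4.46 over the 12 tumours, and the H3 genes H3c11, H3c4 and H3c7 from 3.84 to 4.23, from 3.91 to 4.58 and from 3.97 to 4.73. H3 is the core histone that pairs with H4 and carries many of the modified tail residues. Their groups overlapped in the 4 comparisons between groups, except for H3c4, which was lower in APC-KO than APC-WT tumours without Dox by -0.24 (adjusted p without a filter = 0.320) without overlap, as 12.1% of all probe sets were with no filter. Among the 5 members under the filter, the smallest adjusted p without a filter in any comparison was 0.103.

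**Figure D3:**
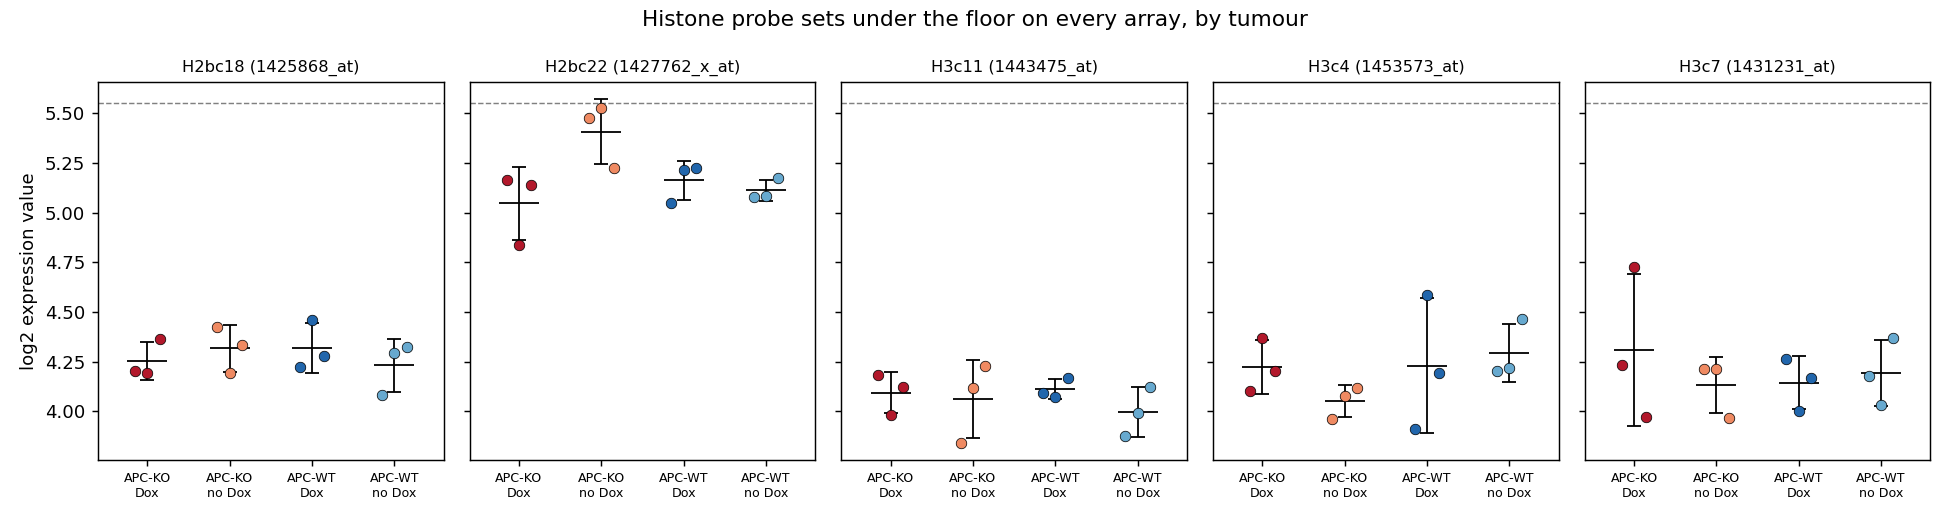
Log2 expression values (vertical axis) of the 5 histone probe sets under the filter in each tumour, by group, with means and SD as bars (n = 3) and the filter of 5.55 as a dashed line. All 60 points lie under the line, and those of H2bc22 in APC-KO tumours without Dox lie closest to it, at 5.48, 5.53 and 5.22.

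Over all 9 members, tested or not, the median difference was 0.30 in APC-KO compared with APC-WT tumours without Dox, against 0.00 over all 45037 probe sets. It was 0.03 with Dox in APC-KO tumours (0.00 over all), 0.09 with Dox in APC-WT tumours (0.01 over all), -0.02 in APC-KO compared with APC-WT tumours with Dox (-0.02 over all) and -0.15 in the interaction (-0.01 over all). With Dox in APC-KO tumours 5 of the 9 differences were above 0 and 4 below. This split is near that over all 45037 probe sets, with 22551 above 0 and 22486 below. It includes the signs of the 5 members under the filter. The median of 0.30 without Dox is the value of H2bc22, which lay under the filter. Of the 9 probe sets, 4 read only 2 genes, H2ac19 and H2bc21.

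A further 17 probe sets listed several core histone genes each and so were not members; 7 of them were tested. They include the 2 tested probe sets of H4, the histone with the fewest protein variants, which no member reads. Without Dox, 4 of the 7 were higher in APC-KO than APC-WT tumours: both of H4 (0.69 ± 0.09, adjusted p = 8.57e-05, and 0.61 ± 0.14, adjusted p = 0.00547), 1 of H3 (0.66 ± 0.14, adjusted p = 0.00377) and 1 of H2B (0.32 ± 0.09, adjusted p = 0.0196). Of all tested probe sets, 12.6% were higher there. With Dox in APC-KO tumours 1 of H4 was lower and 1 of H2A higher, where 0.582% of all tested probe sets passed, and in APC-WT tumours 0 of the 7 passed with Dox, where 0.0355% of all did.

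The H4 probe set 1422948_s_at, which lists 13 genes, had log2 values of 8.79, 8.59 and 8.92 in APC-KO tumours with Dox, 9.33, 9.29 and 9.19 in APC-KO tumours without Dox, 8.69, 8.42 and 8.49 in APC-WT tumours with Dox, and 8.64, 8.56 and 8.53 in APC-WT tumours without Dox. As for H2ac19, the 3 APC-KO tumours without Dox lay above the rest, while the other 3 groups were in a different order. How many tested probe sets have these 3 tumours on top was not counted. The probe set 1422948_s_at fell with Dox in APC-KO tumours by -0.50 ± 0.09 (adjusted p = 0.0207). The other H4 probe set, 1424854_at, listing 13 genes too, differed there by -0.02 ± 0.14 (adjusted p = 0.961) and was higher in APC-KO than APC-WT tumours with Dox as well, by 0.78 ± 0.14 (adjusted p = 0.00133). The 2 probe sets of this class thus gave different values with Dox.

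The H3 probe set 1460314_s_at, which lists 12 genes including H3c11, H3c4 and H3c7, had values of 8.13, 8.10 and 8.06 in APC-KO tumours with Dox and 8.92, 8.95 and 8.41 in APC-KO tumours without Dox. Its difference of -0.66 ± 0.14 narrowly missed the threshold (adjusted p = 0.0503). The H2B probe set 1452540_a_at, which lists 11 genes including H2bc22, had a difference of -0.39 ± 0.09 there (adjusted p = 0.0715). The H2A probe set 1438009_at, listing 10 genes of which none is H2ac19, went the other way: it had 13.3, 13.2 and 13.3 in APC-KO tumours with Dox and 13.1, 12.9 and 13.0 in APC-KO tumours without Dox, and rose by 0.27 ± 0.05 (adjusted p = 0.0331). The 1 probe set that lists H2ac19 together with H2ac18, 1438815_at, had a mean of 3.43, under the filter on all arrays, and differed by -0.01 with Dox in APC-KO tumours. In APC-KO compared with APC-WT tumours without Dox it differed by -0.47 (adjusted p without a filter = 0.0756), opposite in sign to H2ac19. With Dox in APC-WT tumours it differed by -0.47 (0.335) without overlap, as 6.16% of all probe sets did in that direction with no filter.

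**Figure D4:**
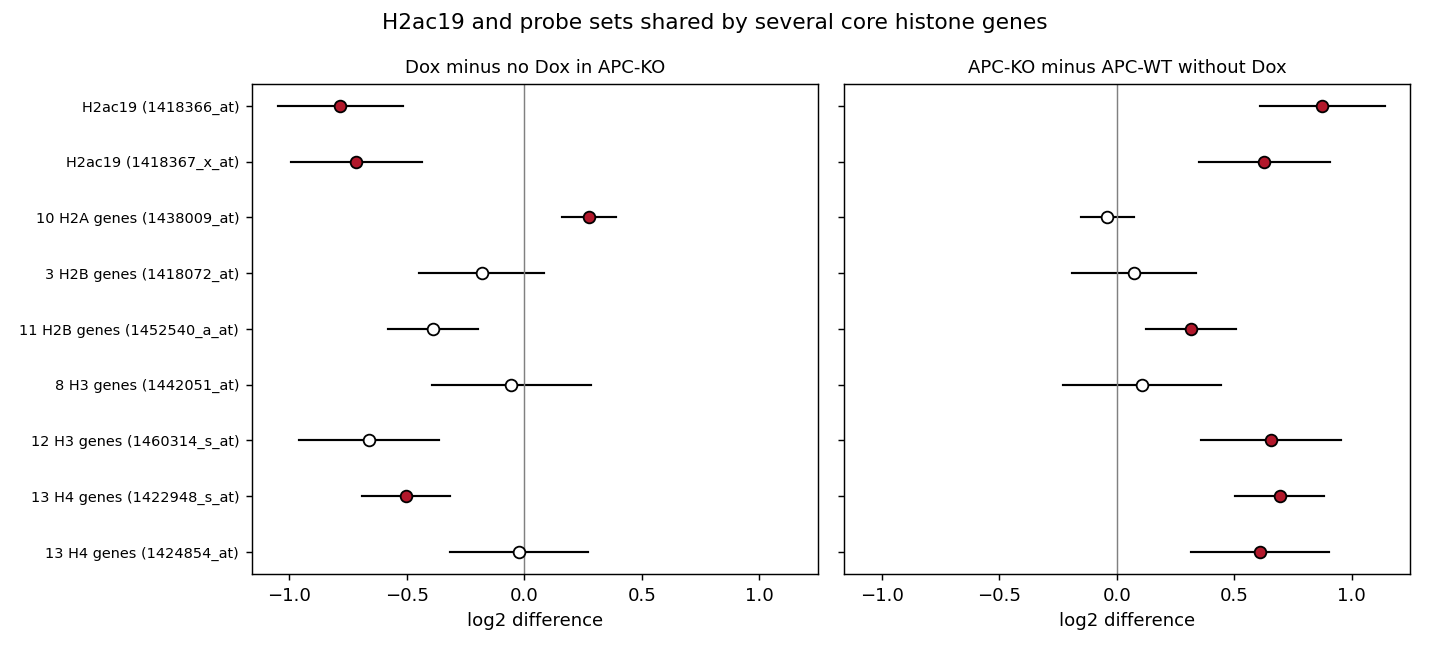
Log2 differences (horizontal axis) with 95% intervals of the 2 H2ac19 probe sets and of the 7 tested probe sets that list several core histone genes, with Dox in APC-KO tumours (left) and in APC-KO compared with APC-WT tumours without Dox (right); filled points passed an adjusted p of 0.05. With Dox in APC-KO tumours 1 H4 probe set lies at -0.50 beside H2ac19, and the H2A probe set lies at 0.27.

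Other signals of the same arrays were set beside H2ac19. The array's control probe sets for 18S ribosomal RNA, which like most replication-dependent histone mRNA has no poly(A) tail, had their highest group mean in the APC-KO tumours without Dox on all 3 controls. The middle (M) control had log2 values of 9.34, 9.37 and 9.61 in APC-KO tumours with Dox, 9.80, 10.2 and 9.89 in APC-KO tumours without Dox, 9.39, 9.57 and 9.61 in APC-WT tumours with Dox, and 9.59, 9.46 and 9.58 in APC-WT tumours without Dox. The 3′ control lay between 8.93 and 9.26 in APC-KO tumours without Dox, with 8.46 to 8.72 in APC-KO tumours with Dox, 8.60 to 8.82 in APC-WT tumours with Dox and 8.63 to 8.84 in APC-WT tumours without Dox. On these M and 3′ controls the APC-KO tumours without Dox did not overlap any other group. The 5′ control had 9.08 to 9.38 in APC-KO tumours with Dox, 9.51 to 9.86 in APC-KO tumours without Dox, 9.18 to 9.59 in APC-WT tumours with Dox and 9.45 to 9.73 in APC-WT tumours without Dox, so there the APC-KO tumours without Dox overlapped both APC-WT groups. The part of this signal in the H2ac19 result was not tested. How far these arrays read RNA without a poly(A) tail was not tested either, so histone values may not follow total histone mRNA.

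Some neutrophil markers moved in the same groups. Of the 5 listed, 3 were measured, none under the filter on all arrays, and 2 (S100a8 and S100a9) were lower with Dox in APC-KO tumours, by -4.07 ± 0.62 (adjusted p = 0.00876) and -4.30 ± 0.69 (adjusted p = 0.0113). Both lay under the filter on all 3 arrays of APC-KO tumours with Dox. Csf3r averaged 6.90 with and 7.07 without Dox in APC-KO tumours and did not pass. In APC-KO and APC-WT tumours with Dox, Csf3r averaged 6.90 and 6.72, S100a8 4.56 and 6.69, and S100a9 4.74 and 7.09. All 3 markers were higher in APC-KO than APC-WT tumours without Dox. The log2 of their summed value ran from 7.19 to 7.68 in APC-KO tumours with Dox, 8.90 to 10.8 in APC-KO tumours without Dox, 8.02 to 9.25 in APC-WT tumours with Dox and 7.26 to 8.26 in APC-WT tumours without Dox. T cell markers were lower in APC-KO than APC-WT tumours in 3 of 4 measured, both with and without Dox; their log2 sum ran from 8.05 to 8.56 in APC-KO tumours with Dox, 8.52 to 8.61 in APC-KO tumours without Dox, 8.65 to 8.95 in APC-WT tumours with Dox and 9.03 to 9.34 in APC-WT tumours without Dox. For the 5 carcinoma markers the log2 sum ran from 8.67 to 9.51 in APC-KO tumours with Dox, 9.64 to 10.4 in APC-KO tumours without Dox, 9.75 to 9.96 in APC-WT tumours with Dox and 10.4 to 11.8 in APC-WT tumours without Dox. Of these markers Krt8 was lower in APC-KO than APC-WT tumours without Dox, by -1.22 ± 0.41 (adjusted p = 0.0415), and none passed with Dox in APC-KO tumours, where Krt8 differed by -1.34 ± 0.41 (adjusted p = 0.175). Krt8 made up most of the sum on most arrays. Without Dox, Epcam averaged 7.31 in APC-KO and 7.09 in APC-WT tumours, and Cdh1 5.71 and 5.88. With Dox, Cdh1 was higher in APC-KO than APC-WT tumours (means 5.76 and 5.13, adjusted p = 0.0172), as 10.8% of all tested probe sets were. Krt8 averaged 8.26 and 9.47 there and did not pass. In APC-KO tumours the macrophage log2 sum ran from 14.33 to 14.39 with Dox and 14.41 to 14.46 without. It was highest in APC-WT tumours with Dox, at 14.47 to 14.55. The erythroid sum, of untested markers, ran from 4.76 to 4.84 with and 5.05 to 6.06 without Dox in APC-KO tumours. The B cell sum, also of untested markers, was higher with Dox there, at 6.68 to 6.72 against 6.40 to 6.56. Fibroblast and endothelial sums overlapped there. The part of these cell types in the histone values was not tested.

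**Figure D5:**
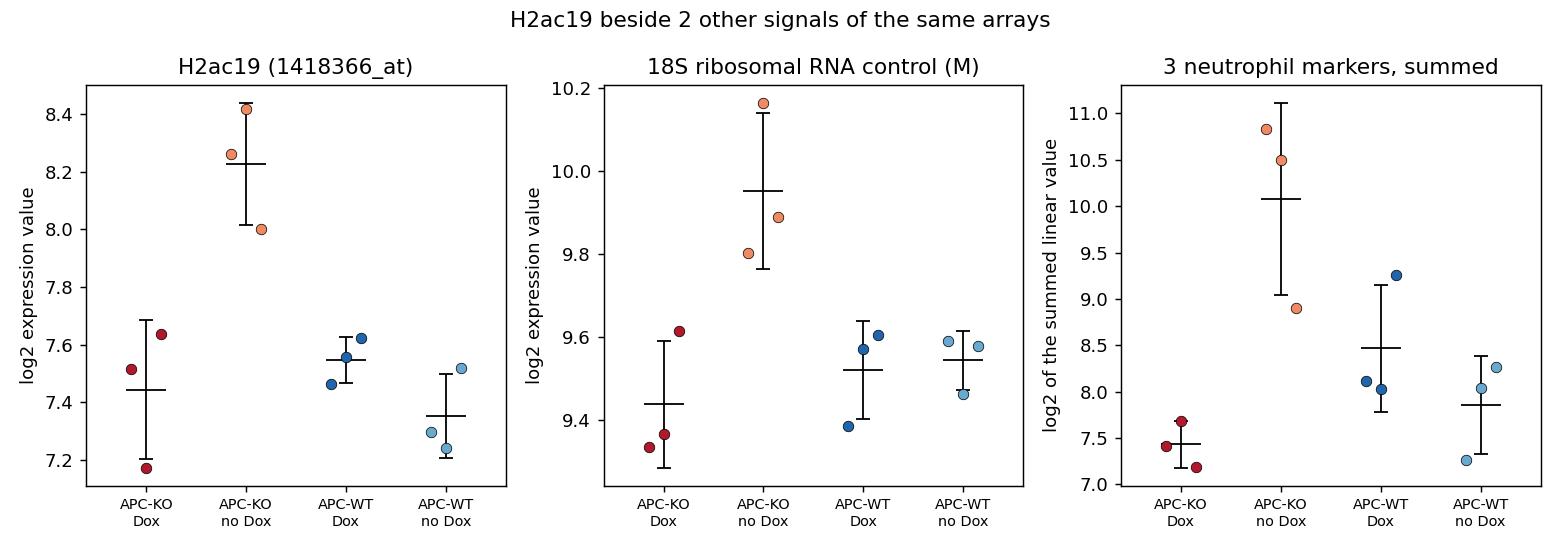
Values per tumour by group (vertical axes in log2) of H2ac19 (1418366_at), of the middle (M) 18S ribosomal RNA control and of the sum of 3 neutrophil markers, with means and SD as bars (n = 3). H2ac19 and the M control are highest in the 3 APC-KO tumours without Dox, at 8.26, 8.42 and 8.00 and at 9.80, 10.2 and 9.89.

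The genes that make and handle histone mRNA and protein were read from 4 lists. For histone mRNA processing and transcription, 24 of 27 genes were tested. Of all tested probe sets, 24.1% passed in APC-KO compared with APC-WT tumours without Dox, 19.6% with Dox, and 0.582% and 0.0355% with Dox in APC-KO and in APC-WT tumours. None of the 24 passed with Dox in either genotype. Slbp, which binds the stem-loop, differed by 0.17 ± 0.06 with Dox in APC-KO tumours (adjusted p = 0.207), opposite in sign to H2ac19. Between APC-KO and APC-WT tumours without Dox 3 of the 24 were higher and 3 lower in APC-KO, a share near the 24.1% of all tested probe sets. Cstf2, a subunit of the cleavage complex, was higher by 0.73 ± 0.05 (adjusted p = 7.85e-07), Lsm11, a U7 protein, by 0.28 ± 0.09 (adjusted p = 0.0357), and Tut7, which adds uridines to decaying RNA, was lower by -0.32 ± 0.08 (adjusted p = 0.00914). With Dox 3 were higher and 1 lower, with Cstf2 at 0.76 ± 0.05 (adjusted p = 4.97e-07) and Lsm11 at 0.39 ± 0.09 (adjusted p = 0.00718).

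For histone chaperones and import, 17 of 20 genes were tested. None passed with Dox in either genotype. Without Dox 2 of the 17 were higher and 2 lower in APC-KO than APC-WT tumours, again near the 24.1% of all tested probe sets, among them Asf1a, an H3-H4 chaperone, at 0.60 ± 0.07 (adjusted p = 5.37e-05), Rbbp7, a subunit of histone-binding complexes, at 0.51 ± 0.05 (adjusted p = 7.44e-06) and Atrx, a partner in H3.3 deposition, at -0.31 ± 0.05 (adjusted p = 0.000455). With Dox 4 of the 17 were higher and none lower, against 19.6% of all tested probe sets in either direction, among them Nasp, a chaperone of soluble H3-H4, at 0.27 ± 0.06 (adjusted p = 0.00717).

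Of the genes listed as replication-independent variants, 9 of 11 were tested and none passed with Dox in either genotype. Whether each is made outside S phase was not tested. Both with and without Dox, 1 of the 9 was higher and 3 were lower in APC-KO than APC-WT tumours, where 19.6% of all tested probe sets passed with Dox and 24.1% without. H2aj, an H2A variant, was higher by 0.49 ± 0.05 with Dox (adjusted p = 3.01e-05) and 0.53 ± 0.05 without Dox (adjusted p = 1.35e-05). H2ax, the variant that is phosphorylated at DNA breaks, was lower by -0.22 ± 0.06 with Dox (adjusted p = 0.0220) and -0.35 ± 0.06 without Dox (adjusted p = 0.00111), and H2az2, an H2A.Z gene, by -0.24 ± 0.05 with Dox (adjusted p = 0.00346) and -0.30 ± 0.05 without Dox (adjusted p = 0.000566). These H2A variants thus differed between genotypes in both directions. The H2A probe set 1438009_at, which lists 10 other H2A genes, differed by -0.04 ± 0.05 without Dox (adjusted p = 0.642) and by 0.24 ± 0.05 with Dox (adjusted p = 0.00576). H2ac19 was higher without Dox.

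Of the genes of S phase and DNA replication, 42 of 43 were tested. With Dox in APC-KO tumours, where H2ac19 fell, none passed. There 40 of the 42 differences were above 0, against 11866 of all 22519 tested probe sets. The median was 0.13 against 0.01 over all tested probe sets. How these genes bear on the H2ac19 values was not tested. In APC-KO compared with APC-WT tumours without Dox, where all 4 tested histone probe sets were higher, 3 of the 42 were higher and 4 lower (24.1% of all tested probe sets passed), with a median of 0.00: Pola2, a subunit of the primase complex, was higher by 0.43 ± 0.07 (adjusted p = 0.000568), and Mcm7, of the replicative helicase, lower by -0.19 ± 0.06 (adjusted p = 0.0298). With Dox 11 of the 42 were higher and none lower (10.8% of all tested probe sets were higher), with a median of 0.14, among them Gins2, a helicase partner, at 0.40 ± 0.08 (adjusted p = 0.00227) and Rrm2, of the enzyme that makes deoxynucleotides, at 0.35 ± 0.05 (adjusted p = 0.000319). H2ac19 differed by -0.10 and -0.17 in that last comparison. No gene of the 4 lists passed in the interaction, where 0% of all tested probe sets did.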

How the data were processed

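The authors deposited 1 table of log2 expression values for the 12 tumour arrays. MAS5 is named, without a version, per the submitters' processing notes; the log2 unit was inferred from the range of values, 1.86 to 14.16. Of 45101 probe sets, 64 controls were left out. Symbols came from GEO's platform annotation: 34945 probe sets had 1 symbol, 932 several and 9160 none, and 34741 were matched to RefSeq GRCm38.p6 by Entrez identifier. Group means were estimated with limma 3.58.1 (R 4.3.3; statmod 1.5.0) on all 12 arrays, with a trend in eBayes, over the 22519 probe sets with a mean of at least 5.55. The 5 contrasts were 2-sided, with Benjamini-Hochberg adjustment over all tested probe sets and a threshold of 0.05. Members under the filter have values from the same fit without a filter. Precision is limited by the number of arrays, and no exact test was run, because 3 against 3 tumours allow no p below 0.1. The fit was tested on simulated data.

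Every member was named. From each list, members that passed were eligible by size of difference, up to 4, then those of smallest p, up to 3; the text gives a part of these. Members and lists were chosen with earlier results of these data known. Replicate numbers of the labels were not used as pairs in the main fit. Over 18 same-number pairs, deviations from group means correlated between -0.141 and 0.143, and 5 were over 0.1. Pairs of different number were not compared, so this check cannot decide whether the tumours were paired. Alternatives were the filter (none, or the 75th percentile), 1 probe set per gene, quantile normalization, no trend, only the compared groups, array weights, the replicate block and leaving out each array. Plots were made in Python 3.11.15 (matplotlib 3.10.9).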

Additional observations from a re-analysis of the deposited data

How the results depend on the processing

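Of the 4 tested histone probe sets, the number that passed with Dox in APC-KO tumours was 2, and it was 0 with the 75th percentile filter, 1 with 1 probe set per gene, 0 when only the compared groups were fitted and 0 to 2 with each array left out. Between APC-KO and APC-WT tumours without Dox it was 4, 0 with the 75th percentile filter, 2 with 1 probe set per gene and 4 with any array left out. In the same comparison with Dox it was 1, 0 with the 75th percentile filter, 2 with array weights and 1 to 2 with each array left out. In the interaction it was 0, 1 with array weights and 0 to 1 with each array left out, and with Dox in APC-WT tumours it was 0 under every setting run. The 75th percentile, 7.81, lies above the means of all 4, and 1 probe set per gene leaves 2, so those counts follow from fewer probe sets tested; for the other settings the cause was not tested. With the replicate number as a block, 1 passed with Dox in APC-KO tumours (1418367_x_at had adjusted p = 0.0549) and 2 in APC-KO compared with APC-WT tumours with Dox. With 1 array left out, 3 of 240 single differences changed sign, none of them past the threshold: the ranges were -0.0816 to 0.1737 and -0.0551 to 0.1715 for H2bc21 with Dox in APC-KO tumours and -0.2025 to 0.0299 for H2ac19 between APC-KO and APC-WT tumours with Dox. Over all probe sets, 8 passed with Dox in APC-WT tumours, against 36 with no filter, 18 with the 75th percentile filter, 3 with 1 probe set per gene, 0 without a trend, 1071 with array weights and 0 to 705 with 1 array left out. With Dox in APC-KO tumours 131 passed, against 60 with 1 probe set per gene, 68 without a trend, 76 with only the compared groups and 33 to 207 with 1 array left out. Between the genotypes 5434 passed without Dox, against 3351 and 2753 with the 75th percentile filter and 1 probe set per gene, and 4414 with Dox, against 2857, 2205 and, with array weights, 6861. In the interaction 0 passed, against 45 with array weights and 0 to 273 with 1 array left out. Signal under the filter limits what 5 of the 9 members can show.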

Other observations

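Linker histone H1, which binds the DNA between nucleosomes, was read by single-symbol probe sets under newer symbols that the rule does not take in. H1f2 had 3 probe sets, all tested, and H1f4 had 1, under the filter. With Dox in APC-KO tumours the H1f2 probe sets differed by -0.53 ± 0.21, -0.36 ± 0.20 and 0.03 ± 0.13 (adjusted p = 0.288, 0.461 and 0.948). In APC-KO compared with APC-WT tumours without Dox they differed by 0.12 ± 0.21, 0.00 ± 0.20 and -0.02 ± 0.13 (adjusted p = 0.733, 0.994 and 0.942). No H1f2 probe set passed in any of the 5 comparisons.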
